A study of Mus musculus with 16 samples.

Results

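The genes of the proteasome, the protease complex that degrades ubiquitin-tagged proteins, were examined in bone marrow-derived dendritic cells (BMDCs) with and without the STING ligand c-di-GMP, in a wild-type and 3 mutant backgrounds. The members were all rows of the expression table whose gene symbol is Psma, Psmb, Psmc, Psmd or Psme followed by a number, which gave 43 of 23356 genes. They fell into 5 immunoproteasome genes, 31 genes of the standard 26S particle, 3 assembly chaperones, the other activators Psme3 and Psme4, and 2 tissue-restricted subunits. Tmem173 encodes STING, the receptor for cyclic dinucleotides, and IRF1, IRF3 and IRF7 are transcription factors of the interferon response.

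Marrow from C57BL/6-background mice was cultured for 6 days with 10 ng/ml GM-CSF and 10 ng/ml IL-4, and the cells were then kept for 18 h with no treatment or, per the labels, with 25 µg/ml c-di-GMP. Each of the 8 combinations of genotype and treatment had 2 samples, and the mutants were Tmem173-/-, Irf1-/- and the double mutant Irf3/7-/-. The treated Tmem173-/- values come from a column whose name marks the agent with other letters than the rest. The samples of a condition were combined into 1 FPKM value (mapped fragments, scaled to transcript length and to the size of the library) with an interval, so no spread between replicates and no p-value could be given, and whether the 2 samples came from separate mice is not stated. A gene was called higher or lower where FPKM plus a pseudocount of 0.1 differed by more than 2-fold, the intervals did not overlap and at least 1 of the conditions reached 1 FPKM. The intervals printed in brackets are those deposited with the values, a log2 difference carries a standard error (SE) derived from them, and both cover only the error that the authors' software estimated.

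The 20S core of the proteasome is a barrel of alpha and beta rings in which Psmb5, Psmb6 and Psmb7 hold the catalytic sites, and the 19S cap unfolds tagged proteins and feeds them in. Interferons induce Psmb8, Psmb9 and Psmb10, which replace Psmb5, Psmb6 and Psmb7 in newly made particles, and Psme1 and Psme2, which form the 11S activator PA28. In dendritic cells the immunoproteasome is known for making peptides for presentation on MHC class I.

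The promoter sequences of the 5 interferon-inducible genes are shown with that of Psmb6, the standard catalytic subunit whose level varied most, so that the letters behind a motif search can be read. Each is the 250 bases before the RefSeq start site (GRCm38.p6), 5′ to 3′ on the strand of the gene, with a motif match in capitals. The matches are TTCNNNGAA in Psmb8, the palindrome of the interferon gamma-activated site (GAS), and TGACNNNGC in Psmb6, the antioxidant response element.
Psmb8, chr17:34197945-34198194, plus strand: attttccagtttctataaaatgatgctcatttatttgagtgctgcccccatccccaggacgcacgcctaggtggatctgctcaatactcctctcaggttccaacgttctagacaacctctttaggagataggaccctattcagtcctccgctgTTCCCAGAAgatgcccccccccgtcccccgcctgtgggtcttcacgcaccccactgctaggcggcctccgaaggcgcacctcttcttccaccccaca
Psmb9, chr17:34187331-34187580, minus strand: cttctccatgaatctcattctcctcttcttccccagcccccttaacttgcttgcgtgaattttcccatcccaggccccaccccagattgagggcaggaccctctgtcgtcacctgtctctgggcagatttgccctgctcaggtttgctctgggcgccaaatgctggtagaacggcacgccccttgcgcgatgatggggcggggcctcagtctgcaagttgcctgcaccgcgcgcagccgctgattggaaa
Psmb10, chr8:105938393-105938642, minus strand: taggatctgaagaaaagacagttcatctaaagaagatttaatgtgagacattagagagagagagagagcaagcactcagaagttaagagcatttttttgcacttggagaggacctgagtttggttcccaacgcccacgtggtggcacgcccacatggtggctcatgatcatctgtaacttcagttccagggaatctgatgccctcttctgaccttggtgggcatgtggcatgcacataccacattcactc
Psme1, chr14:55578244-55578493, plus strand: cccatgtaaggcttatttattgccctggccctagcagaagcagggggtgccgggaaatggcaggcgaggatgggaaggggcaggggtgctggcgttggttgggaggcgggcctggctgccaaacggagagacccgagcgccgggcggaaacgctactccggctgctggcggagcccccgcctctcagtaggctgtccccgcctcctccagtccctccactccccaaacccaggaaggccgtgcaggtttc
Psme2, chr14:55591102-55591351, minus strand: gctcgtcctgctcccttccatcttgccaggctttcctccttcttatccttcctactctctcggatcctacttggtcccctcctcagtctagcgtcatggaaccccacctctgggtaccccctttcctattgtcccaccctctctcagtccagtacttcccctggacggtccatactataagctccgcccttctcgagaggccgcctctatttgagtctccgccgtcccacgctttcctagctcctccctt
Psmb6, chr11:70525107-70525356, plus strand: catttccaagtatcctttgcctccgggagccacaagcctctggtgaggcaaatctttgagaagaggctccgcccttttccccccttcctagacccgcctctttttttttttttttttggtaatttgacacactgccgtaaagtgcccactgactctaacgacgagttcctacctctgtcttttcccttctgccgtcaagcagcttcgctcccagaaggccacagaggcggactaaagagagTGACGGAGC
The same letters and GAAANNGAA, a core of the interferon-stimulated response element (ISRE), were searched on both strands of windows from 250 bases before to 50 bases after the start site, and no match in a member overlapped another. Of the 43 genes, 36 had such a window. GAAANNGAA was found in 5 of the 36 windows, TTCNNNGAA in 2 and TGACNNNGC in 6, against 8.56%, 8.30% and 12.4% of all 32851 windows. Among the 5 inducible genes, Psme1 held GAAANNGAA, read on the other strand from base 11 after the start site (gctgtgctTTCGCTTTCccttcccg), and Psmb8 held TTCNNNGAA from base -97. Psmb9, Psmb10 and Psme2 held none of the 3 motifs in this window. TGACNNNGC was absent from the windows of the inducible genes and present in 4 of 25 windows of standard genes, among them Psmb5 from base -47 and Psmb6 from base -9. These are matches of letters only.

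The cultures differed in more than the deleted gene. Tmem173 was at 8.97 and 7.49 FPKM in untreated and treated Tmem173-/- BMDCs and at 77.0 to 118 FPKM elsewhere. Irf1 was at 25.9 and 116 FPKM in untreated and treated Irf1-/- BMDCs against 149 and 245 FPKM in wild-type, Irf7 reached 4.97 FPKM in treated Irf3/7-/- BMDCs against 687 FPKM, and Irf3 was at 7.74 and 20.2 FPKM in Irf3/7-/- against 19.9 and 15.8 FPKM in wild-type BMDCs. A level over the whole gene does not show whether the deleted exons are absent, so Irf3 in particular gives no check of that label. All 8 dendritic cell markers were at 1 FPKM or more in every condition. Their sum ran from 4896 FPKM in untreated Irf1-/- to 8961 FPKM in treated wild-type BMDCs. Single markers differed in both directions. In untreated Irf1-/- against untreated wild-type BMDCs, H2-Aa was at 364 against 1031 FPKM and Itgax at 369 against 210.0 FPKM. The summed level of 5 T cell markers was 38.8 and 25.8 FPKM in untreated and treated wild-type, 52.4 and 95.6 in Irf3/7-/-, 3.24 and 2.35 in Irf1-/-, and 0.542 and 0.610 in Tmem173-/- BMDCs. That of 5 neutrophil markers was 19086 and 13776 FPKM in Tmem173-/- BMDCs and 1361 to 3906 FPKM in the other conditions. S100a8 and S100a9 made up most of this sum, at 10351 and 8336 FPKM in untreated Tmem173-/- BMDCs. That S100a8 value lay above its own deposited interval (5199 to 10137), as S100a8 did in every condition, and the Elane intervals began at 0. Of these 5 markers Mpo alone was not highest in untreated Tmem173-/- BMDCs, at 19.1 FPKM against 24.7 FPKM in untreated Irf1-/- BMDCs. Macrophage markers summed to 417 and 397 FPKM in untreated and treated Tmem173-/- BMDCs and to 133 to 240.2 FPKM in the other conditions. Cd68 and Csf1r made up most of the Tmem173-/- sum. Mertk went the other way, at 2.83 and 3.74 FPKM in Tmem173-/- against 4.89 and 16.9 FPKM in wild-type BMDCs. The Emr1 intervals of these 2 genotypes overlapped within either treatment. B cell markers summed to 10.7 and 8.40 FPKM in Tmem173-/- BMDCs and to 3.34 to 6.75 FPKM in the other conditions. The summed markers of NK cells lay between 1.88 and 29.3 FPKM, and of basophils and mast cells between 36.1 and 142 FPKM. In bulk RNA, fewer cells of a type and less RNA per cell cannot be told apart.

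Expression of the 5 immunoproteasome genes ran over a wider range than that of the standard particle. Each was highest in treated wild-type and lowest in treated Tmem173-/- BMDCs, with 3.81-fold (Psmb8) to 6.14-fold (Psmb9) between the extremes and intervals apart in all 5. In 26 of the 31 standard 26S genes the highest and lowest of the 8 conditions were less than 1.5-fold apart, and in 5 their intervals did not overlap. The extremes were picked out of 8 conditions, and the share of all genes with such extremes apart was not computed. In treated Tmem173-/- against treated wild-type BMDCs alone, 1898 of all 11318 tested genes were higher and 1926 lower with intervals apart.

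**Figure D1:**
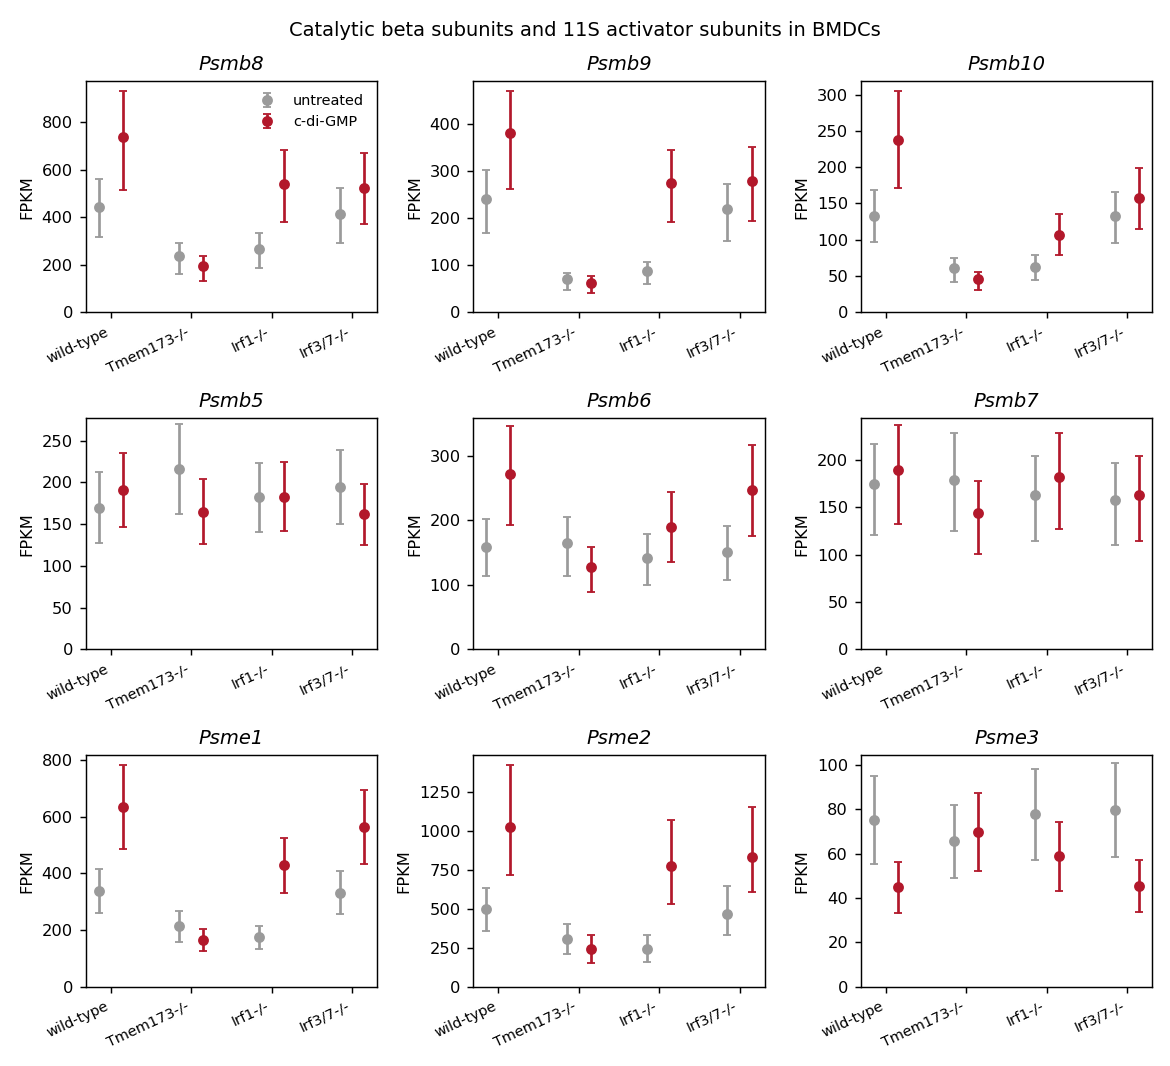
FPKM (vertical axes, from 0) of the inducible catalytic subunits Psmb8, Psmb9 and Psmb10, their standard counterparts Psmb5, Psmb6 and Psmb7, and the 11S activator subunits Psme1, Psme2 and Psme3, by genotype, without (grey) and with (red) c-di-GMP. Points are the 1 value per condition and bars the deposited intervals; Psmb9 runs from 61.9 to 380.1 FPKM, whereas the intervals of Psmb5 and Psmb7 overlap between all conditions.

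Psmb8, the inducible chymotrypsin-like subunit that replaces Psmb5, was at 441 FPKM (316 to 560.0) in untreated and 736 FPKM (514 to 932) in treated wild-type BMDCs, and at 237 (160.1 to 291) and 193 FPKM (131 to 236) in Tmem173-/- BMDCs. In Irf1-/- BMDCs it was at 264 (186 to 333) and 538 FPKM (379 to 684), and in Irf3/7-/- BMDCs the values were 411 (290.5 to 523) and 522 FPKM (370.3 to 668). The treated Tmem173-/- value was the lowest of all, with an interval apart from every other condition except its own untreated control and untreated Irf1-/- BMDCs. GENCODE annotates genes on the opposite strand that overlap Psmb8 (Gm20496), Psmb10 (Gm16156) and the start of Psmb9 (Tap1). The libraries were stranded, but the strand setting behind these FPKM values is not stated, so whether reads of the paired genes were kept apart is unknown.

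Psmb9, the inducible counterpart of Psmb6, was at 239.7 FPKM (168 to 302) in untreated and 380.1 FPKM (261 to 469) in treated wild-type BMDCs. Untreated and treated Tmem173-/- BMDCs held 71.6 (46.8 to 84.0) and 61.9 FPKM (40.7 to 77.8), Irf1-/- BMDCs 86.8 (60.1 to 106) and 275 FPKM (191 to 344), and Irf3/7-/- BMDCs 219 (152 to 273) and 278 FPKM (194 to 349.6). The untreated values thus formed a high pair, wild-type and Irf3/7-/-, and a low pair, Tmem173-/- and Irf1-/-, with no overlap between the pairs. With c-di-GMP, Irf1-/- BMDCs left the low pair and their interval overlapped that of treated wild-type BMDCs.

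Psmb10, the inducible counterpart of Psmb7, was at 133 FPKM (97.3 to 168) in untreated and 238 FPKM (171 to 305) in treated wild-type BMDCs, and at 61.1 (41.4 to 75.1) and 45.9 FPKM (31.2 to 55.5) in Tmem173-/- BMDCs. The values were 61.8 (44.6 to 78.9) and 107 FPKM (78.5 to 136) in Irf1-/- BMDCs and 132 (96.0 to 166) and 158 FPKM (115 to 199) in Irf3/7-/- BMDCs. The same high and low pairs appeared without treatment, and treated Irf1-/- BMDCs stayed below treated wild-type BMDCs with intervals apart.

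Psme1, the alpha subunit of PA28, was at 338 and 635 FPKM in untreated and treated wild-type BMDCs, 332 and 565 in Irf3/7-/-, 174 and 428 in Irf1-/-, and 213 and 164 in Tmem173-/- BMDCs. Psme2, its beta subunit, which reached the highest FPKM of the 43 genes, was at 498 and 1025 FPKM in wild-type, 465 and 831 in Irf3/7-/-, 305 and 238 in Tmem173-/-, and 239 and 771 in Irf1-/- BMDCs. The subunits of this heteromer moved together, the ratio of Psme2 to Psme1 FPKM lying between 1.37 and 1.80 in the 8 conditions with overlapping intervals throughout. The locus given for Psme1 also covers Emc9, which may share its reads.

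The standard catalytic subunits were not alike. Psmb5, the standard chymotrypsin-like subunit, lay between 162 and 216 FPKM and Psmb7, the trypsin-like subunit, between 144 and 189.6 FPKM, with no interval apart from another. Psmb6, the caspase-like subunit, was at 158 FPKM (113 to 201) and 271 FPKM (192 to 345) in untreated and treated wild-type BMDCs, 151 (107 to 191) and 247 (176 to 317) in Irf3/7-/-, 141 (99.6 to 179) and 189 (135 to 243) in Irf1-/-, and 164 (113 to 205) and 128 (89.4 to 159) FPKM in Tmem173-/- BMDCs. Its untreated values lay close together in all 4 genotypes, and treated wild-type BMDCs had the highest and treated Tmem173-/- BMDCs the lowest value, as with the inducible genes. Processed pseudogenes of Psmb5, Psmb6 and Psmb7 are annotated, and no source used here says how reads shared with such copies were counted.

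The remaining genes of the 20S core varied little, apart from Psma5. The alpha ring genes Psma1 to Psma7, which form the gated ends of the barrel, ran from 113 to 306 FPKM, and only Psma5 had intervals apart, between 214 FPKM in treated wild-type and 113 FPKM in treated Tmem173-/- BMDCs. The structural beta subunits Psmb1 to Psmb4 ran from 159 to 256 FPKM with overlapping intervals. The locus of Psma6 in the table also covers Nfkbia, Ppp2r3c and further genes, those of Psma3 and Psma4 cover 3110056K07Rik and AY074887, and their values are less certain for that reason.

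The 19S cap was mostly expressed at a lower level per length than the core. The ATPases Psmc1 to Psmc6, which unfold the substrate, ran from 66.2 to 119 FPKM with all intervals overlapping. The 11 non-ATPase subunits, which include the ubiquitin receptors and the deubiquitinase Psmd14, ran from 45.4 to 326 FPKM. Psmd8, a lid subunit, was the highest of them, at 196 and 244 FPKM in untreated and treated wild-type, 209 and 326 in Irf3/7-/-, 183 and 155 in Tmem173-/-, and 204 and 279 in Irf1-/- BMDCs. Psmd6, another lid subunit, was lowest in treated wild-type BMDCs (50.9 FPKM) and highest in untreated Tmem173-/- BMDCs (90.1 FPKM), whereas the inducible genes were highest in treated wild-type BMDCs. Psmd11, a scaffold subunit of the lid, ran from 53.1 FPKM in untreated Tmem173-/- to 89.1 FPKM in treated Irf1-/- BMDCs, and it was with Psmd6 and Psmd8 1 of the 3 non-ATPases with intervals apart.

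Of the chaperones that assemble the cap, Psmd5 lay between 31.7 and 40.7 FPKM and Psmd9 between 9.32 and 11.5 FPKM. Psmd10 (gankyrin) was at 23.1 FPKM (17.2 to 29.0) and 43.9 FPKM (34.1 to 53.7) in untreated and treated wild-type, 22.0 and 29.3 in Irf3/7-/-, 20.1 and 36.1 in Irf1-/-, and 29.1 and 25.0 FPKM in Tmem173-/- BMDCs. Psme3, the nuclear activator PA28 gamma, was at 75.1 FPKM (55.2 to 94.9) and 44.8 FPKM (33.4 to 56.1) in wild-type, 79.8 and 45.5 in Irf3/7-/-, 65.5 and 69.9 in Tmem173-/-, and 77.9 and 58.7 FPKM in Irf1-/- BMDCs. Psme3 thus ran against its PA28 relatives, with its lowest value in treated wild-type BMDCs. Psme4, the activator PA200, was at 18.6 FPKM (14 to 23.1) and 32.6 FPKM (24.8 to 40.4) in wild-type, 18.1 and 29.7 in Irf3/7-/-, 17 and 38.8 in Irf1-/-, and 15.6 and 18.7 FPKM in Tmem173-/- BMDCs. The testis subunit Psma8 stayed between 0.559 and 1.73 FPKM, and the thymus subunit Psmb11 at or below 0.0636 FPKM.

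The first question was which proteasome genes responded to treatment in wild-type cells. Psme2 rose 2.06-fold (log2 1.04, SE 0.32). The other immunoproteasome genes were higher by less than the threshold, Psme1 by 0.91 (SE 0.24), Psmb10 by 0.84 (SE 0.28), Psmb8 by 0.74 (SE 0.29) and Psmb9 by 0.66 (SE 0.28) on the log2 scale, and the intervals of Psme1 and Psmb10 did not overlap those of the untreated cells. Psme2 was the only 1 of 41 tested members called higher, where 10.5% of all 11201 tested genes were, and 0 were called lower, where 9.96% were. The share of members called was thus below that of all genes.

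By group, the median log2 difference in wild-type BMDCs was 0.84 for the 5 immunoproteasome genes, -0.02 for the 31 standard genes and 0.00 for all genes tested. Within the standard particle the differences ran from 0.78 (SE 0.29) for Psmb6 to -0.55 for Psmd6, with 14 genes above and 17 below 0. In the alpha ring they ran from -0.26 (Psma4) to 0.43 (Psma5), in the structural beta subunits from -0.27 (Psmb3) to -0.02 (Psmb2), in the ATPases from -0.16 (Psmc3) to 0.17 (Psmc5) and in the non-ATPases from -0.55 (Psmd6) to 0.31 (Psmd8). None of these passed the threshold. Outside the particle, Psmd10 differed by 0.92 (SE 0.24) and Psme4 by 0.81 (SE 0.25) with intervals apart, Psmd5 by -0.19, and Psme3 by -0.74 (SE 0.26) with intervals that overlapped.

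In Tmem173-/- BMDCs 0 of 42 tested members were called in either direction, where 0.0460% of all 10867 genes were called higher and 0.00920% lower. The immunoproteasome genes differed by -0.21 (Psmb9) to -0.41 (Psmb10) and the standard genes by a median of -0.28, with 29 of the 31 below 0, while the median of all genes tested was -0.02. The lower values after treatment thus covered the inducible and standard genes alike, within intervals that overlapped for every member. The summed FPKM of all genes was 710814 in untreated and 641016 in treated Tmem173-/- BMDCs, and 595544 and 701605 in wild-type BMDCs. The part of these sums in the values was not tested. The difference in response between Tmem173-/- and wild-type BMDCs, with 2 SE on either side, was -1.03 (-1.83 to -0.23) for Psmb8, -0.87 (-1.68 to -0.07) for Psmb9, -1.25 (-2.04 to -0.47) for Psmb10, -1.29 (-1.98 to -0.60) for Psme1 and -1.40 (-2.34 to -0.45) for Psme2. It was -1.13 (-1.93 to -0.33) for Psmb6 and -1.14 (-1.86 to -0.43) for Psmd10. For Psme4 it was -0.55 (-1.24 to 0.13), a range that includes 0, and for Psme3 it lay in the other direction, at 0.84 (0.10 to 1.57). These ranges rest on the deposited intervals and not on replicates. They were not set against the standard genes, whose median was -0.28 in Tmem173-/- and -0.02 in wild-type BMDCs. Ranges that end close to 0, as for Psmb8 and Psmb9, need not exclude it once that shift is taken off. The immunoproteasome median less the standard median was -0.08 in Tmem173-/- and 0.86 in wild-type BMDCs.

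In Irf1-/- BMDCs c-di-GMP raised 5 of 42 tested members, where 9.67% of all 11164 genes were called higher, and lowered 0, where 7.81% were called lower, so the share of members called higher was close to that of all genes. Psme2 rose 3.23-fold (log2 1.69, SE 0.36), Psmb9 rose 3.16-fold (1.66, SE 0.28), Psme1 rose 2.45-fold (1.30, SE 0.24) and Psmb8 rose 2.04-fold (1.03, SE 0.29). The fifth was Psme4, the only call outside the immunoproteasome, which rose 2.27-fold (1.19, SE 0.24). Psmb10 differed by 0.80 (SE 0.28), a value close to that in wild-type BMDCs. The median was 1.30 for the immunoproteasome genes, 0.05 for the standard genes and 0.00 for all genes tested.

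Set against wild-type BMDCs, the response in Irf1-/- BMDCs was larger by 1.0 (0.21 to 1.79) for Psmb9 on the log2 scale. For Psme2 the difference in response was 0.65 (-0.31 to 1.62), for Psme1 0.38 (-0.28 to 1.05), for Psmb8 0.29 (-0.52 to 1.10) and for Psmb10 -0.05 (-0.83 to 0.74), ranges that all include 0. The larger ratios in Irf1-/- BMDCs started from lower untreated values, 86.8 against 239.7 FPKM for Psmb9.

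In Irf3/7-/- BMDCs 0 of 41 tested members were called, where 10.2% of all 11283 genes were called higher and 7.68% lower. All 5 immunoproteasome genes were above 0, from 0.26 (SE 0.27) for Psmb10 to 0.84 (SE 0.34) for Psme2, and Psme1 at 0.77 (SE 0.23) was the only one of them with intervals apart. Psmb6 differed by 0.71 (SE 0.29), Psme4 by 0.71 (SE 0.25), Psmd8 by 0.64 and Psme3, with intervals apart, by -0.81 (SE 0.27). The difference in response from wild-type BMDCs ran from -0.59 (-1.37 to 0.19) for Psmb10 to -0.14 (-0.81 to 0.52) for Psme1, so that a smaller and an equal response cannot be told apart. The medians were 0.35 for the immunoproteasome, -0.14 for the standard genes and 0.00 for all genes tested.

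**Figure D2:**
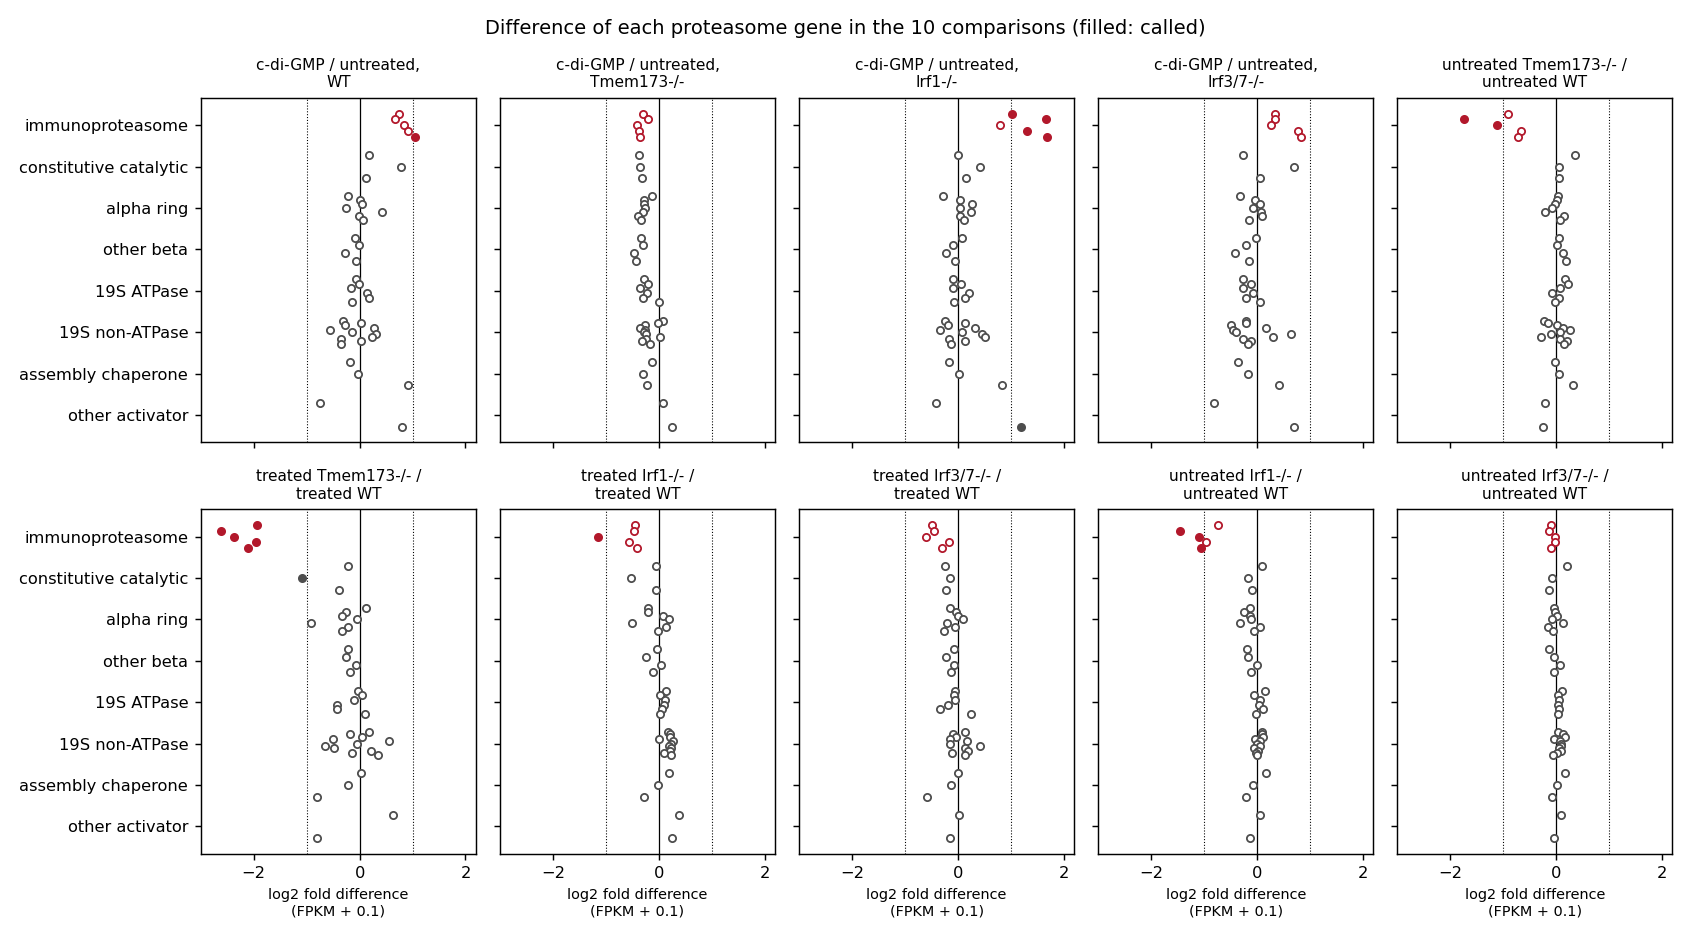
Log2 fold difference (horizontal axis, FPKM plus 0.1) of each proteasome gene in the 10 comparisons, by group of subunits. Each circle is 1 gene, the shift of circles within a row has no meaning, filled circles passed the call, dotted lines mark 2-fold, and red marks the immunoproteasome, which lies to the left of -1.9 in treated Tmem173-/- against treated wild-type BMDCs and near 0 in untreated Irf3/7-/- against untreated wild-type BMDCs; Psma8 is not drawn.

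The second question was how the genotypes differed under c-di-GMP. In treated Tmem173-/- against treated wild-type BMDCs 6 of 42 tested members were lower, a share close to the 13.5% of all 11318 genes that were, and 1 was higher, where 12.9% were. All 5 immunoproteasome genes were among the lower: Psmb9 fell 6.13-fold short of wild-type (log2 -2.62, SE 0.29), Psmb10 5.19-fold (-2.37, SE 0.28), Psme2 4.30-fold (-2.10, SE 0.36), Psme1 3.88-fold (-1.95, SE 0.24) and Psmb8 3.80-fold (-1.93, SE 0.28). Psmb6, lower by 2.11-fold (-1.08, SE 0.28), was the sixth. The higher gene was Psma8 (log2 1.21) at 1.68 against 0.671 FPKM, which was tested only because its Tmem173-/- value passed the 1 FPKM minimum. The median was -2.10 for the immunoproteasome, -0.19 for the standard genes and 0.02 for all genes tested. Psma5 (-0.92, SE 0.28), Psmd10 (-0.81, SE 0.24) and Psme4 (-0.80, SE 0.24) lay below wild-type with intervals apart but within 2-fold.

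In treated Irf1-/- against treated wild-type BMDCs Psmb10 alone was called, lower by 2.22-fold (log2 -1.15, SE 0.28). That was 1 of 41 tested members lower, where 4.91% of all 11079 genes were, and 0 higher, where 2.65% were. The other immunoproteasome genes differed by -0.41 (Psme2) to -0.57 (Psme1) with overlapping intervals, and their group median was -0.47, beside 0.08 for the standard genes and 0.02 for all genes tested. In treated Irf3/7-/- against treated wild-type BMDCs 0 of 41 tested members were called, where 4.61% of all 11209 genes were higher and 2.69% lower. The immunoproteasome genes differed by -0.17 (Psme1) to -0.60 (Psmb10), with medians of -0.45 for them, -0.07 for the standard genes and -0.02 for all genes tested. These 3 comparisons share the treated wild-type value.

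The third question was whether the genotypes already differed without c-di-GMP. In Tmem173-/- BMDCs Psmb9 was lower by 3.35-fold (log2 -1.74, SE 0.28) and Psmb10 by 2.17-fold (-1.12, SE 0.28), which made 2 of 42 tested members, close to the 5.95% of all 11101 genes that were lower, and 0 were higher, where 5.04% were. Psmb8 (-0.90, SE 0.28) had intervals apart within 2-fold, and Psme2 (-0.71) and Psme1 (-0.66) did not. In Irf1-/- BMDCs Psmb9 was lower by 2.76-fold (-1.46, SE 0.28), Psmb10 by 2.15-fold (-1.10, SE 0.28) and Psme2 by 2.09-fold (-1.06, SE 0.33). These were 3 of 42 tested members, where 3.52% of all 11017 genes were lower, and 0 were higher, where 1.26% were. Psme1, at 174 against 338 FPKM, was lower with intervals apart within 2-fold, and Psmb8 (-0.74) was lower with intervals that overlapped. In Irf3/7-/- BMDCs 0 of 41 tested members were called, where 1.17% of all 11004 genes were higher and 0.863% lower, and every immunoproteasome gene lay within 0.13 of wild-type on the log2 scale.

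The untreated medians of the immunoproteasome were -0.10 for Irf3/7-/-, -1.06 for Irf1-/- and -0.90 for Tmem173-/- BMDCs, those of the standard genes 0.03, -0.02 and 0.05, and those of all genes tested -0.01, 0.00 and 0.01. The 3 comparisons share the untreated wild-type value.

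Interferon gamma is the best known inducer of the immunoproteasome. Its message differed between the genotypes, within either treatment, in the same order as the summed T cell markers. The summed NK cell markers were likewise highest in Irf3/7-/- and next in wild-type BMDCs. They were at 24.0 and 16.8 FPKM untreated and at 29.3 and 12.1 FPKM treated. The summed NK cell markers were lower in Irf1-/- than in Tmem173-/- BMDCs, but Klrk1 alone gave 3.83 of 3.91 FPKM in untreated Tmem173-/- BMDCs. Without treatment, Eomes was higher in Irf1-/- BMDCs, at 1.29 against 0.0106 FPKM in Tmem173-/- BMDCs. So were Prf1 and Klrb1c, both below 0.1 FPKM, and Ncr1 was at 0 in both. The order of the 2 sums thus rests on Klrk1. Within wild-type and Irf1-/- BMDCs the summed T cell markers were not higher after c-di-GMP, while Ifng was. Within Irf3/7-/- BMDCs both were higher, the T cell markers going from 52.4 to 95.6 FPKM. Ifng was at 34.6 and 299 FPKM in untreated and treated wild-type, 44.0 and 1155 in Irf3/7-/-, 1.26 and 25.5 in Irf1-/-, and listed at 0 in both Tmem173-/- conditions. Ifnb1 reached 2.93 FPKM in treated wild-type, 3.53 in treated Irf1-/- and 22.6 in treated Irf3/7-/- BMDCs and stayed at or below 0.0474 FPKM in the other conditions. Treated Irf3/7-/- BMDCs thus had the most Ifng and Ifnb1 message while their 5 immunoproteasome values were below those of treated wild-type BMDCs, with overlapping intervals. The part that these messages or the markers of T cells, NK cells, neutrophils and other cells have in the immunoproteasome values was not tested.

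Since each inducible subunit takes the place of a standard one, their FPKM were set against each other within a condition. The ratio of Psmb8 to Psmb5 was 2.60 (1.49 to 4.40) and 3.85 (2.19 to 6.33) in untreated and treated wild-type, 2.11 and 3.24 in Irf3/7-/-, 1.10 (0.594 to 1.80) and 1.17 (0.641 to 1.87) in Tmem173-/-, and 1.45 (0.831 to 2.37) and 2.93 (1.69 to 4.83) in Irf1-/- BMDCs. The ratio of Psmb10 to Psmb7 was 0.765 and 1.26 in wild-type, 0.839 and 0.967 in Irf3/7-/-, 0.379 and 0.590 in Irf1-/-, and 0.341 and 0.319 in Tmem173-/- BMDCs. That of Psmb9 to Psmb6 behaved differently, at 1.52 and 1.40 in wild-type, 1.45 and 1.13 in Irf3/7-/-, 0.436 and 0.482 in Tmem173-/-, and 0.614 and 1.45 in Irf1-/- BMDCs. In wild-type and Irf3/7-/- BMDCs the Psmb9 to Psmb6 ratio was not higher after treatment, as both genes had higher values, and in Irf1-/- BMDCs it was, the outer bounds overlapping in each case.

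The inducible genes made up 61.9% of the summed FPKM of the 6 catalytic genes in untreated and 67.5% in treated wild-type BMDCs. The share was 60.2% and 62.7% in Irf3/7-/-, 45.9% and 62.4% in Irf1-/-, and 39.8% and 40.8% in Tmem173-/- BMDCs. The summed FPKM of Psmb5, Psmb6 and Psmb7 moved less, from 438 in treated Tmem173-/- to 652 in treated wild-type BMDCs, than that of Psmb8, Psmb9 and Psmb10, from 301 to 1354 in the same conditions. These are shares of message and not of assembled particles.

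**Figure D3:**
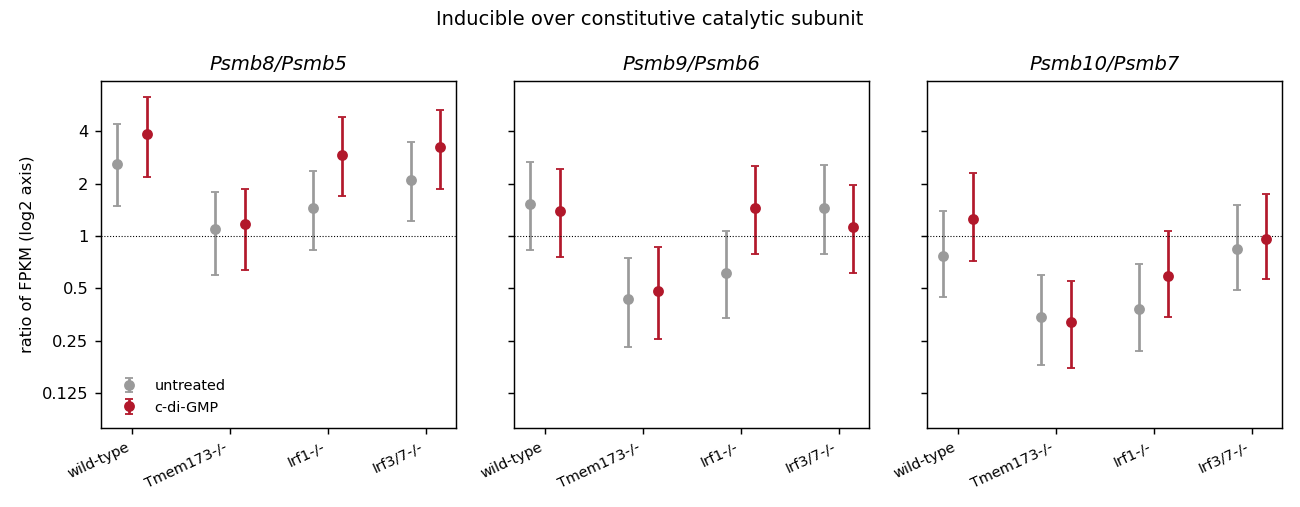
Ratio of FPKM (log2 axis) of each inducible catalytic subunit to the standard subunit it replaces, by genotype, without (grey) and with (red) c-di-GMP. Bars run from the lower bound over the upper bound to the upper over the lower, and the dotted line marks 1; in both Tmem173-/- conditions the Psmb9 to Psmb6 and Psmb10 to Psmb7 bars lie wholly below 1.

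Of 25 further genes (24 of them tested in wild-type BMDCs) that assemble, regulate or supply the proteasome, 2 fell and 0 rose in wild-type BMDCs given c-di-GMP, where 9.96% of all genes were called lower and 10.5% higher. Psmg1, a chaperone of alpha ring assembly, fell from 22.4 to 8.93 FPKM (log2 -1.32, SE 0.32), and Uchl5, a deubiquitinase of the 19S cap, fell from 31.9 to 14.7 FPKM (log2 -1.11, SE 0.26). Psmg1 also fell in Irf3/7-/- BMDCs, from 20.9 to 8.32 FPKM. In Irf1-/- BMDCs it went from 22.9 to 11.5 FPKM (log2 -0.98), with intervals apart but just within 2-fold. Zfand5, which encodes a proteasome-activating protein, rose in Irf3/7-/- BMDCs (log2 1.12), and 0 of the 25 were called in Tmem173-/- BMDCs. In treated Tmem173-/- against treated wild-type BMDCs 4 of these genes were higher, Psmg1, Uchl5, the deubiquitinase Usp14 and the transcription factor Nfe2l2, and the inhibitor gene Psmf1 and the polyubiquitin gene Ubb were lower, where 12.9% and 13.5% of all genes were called higher and lower. Nfe2l2, whose product binds antioxidant response elements, was also higher without treatment, at 145 FPKM in Tmem173-/- against 60.0 FPKM in wild-type BMDCs.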

How the data were processed

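RNA-seq libraries were made from total RNA with a stranded mRNA kit, per the labels. The authors combined the samples of a condition with Cuffdiff (1.06, per the submitters' processing notes) and deposited 1 FPKM value, an interval and a status per gene and condition. The notes name build mm9, but 21283 of 21519 gene loci matched by symbol overlapped the GRCm38.p6 gene, as did all 43 members, so loci were read as GRCm38. The study's methods name an opposing-strand setting for its Seqmonk analysis. For the Cuffdiff values neither strand setting, aligner nor the handling of shared reads was given in the sources used here. Of the 2 Tmem173 columns, 1 carries an agent in its name, written GDP where the other treated columns have cdg, and it was taken as the treated condition on that ground. The study's text gives another c-di-GMP dose than the labels. A set of 4 further columns was not analysed here.

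FPKM were compared as log2(FPKM + 0.1) in 10 comparisons in pandas 2.3.3 and numpy 2.4.6 (Python 3.11.15), with scipy 1.17.1 for the z alternative and matplotlib 3.10.9 for figures. The interval was taken to reach 2 SE to either side of the value. Genes needed 1 FPKM in 1 of the conditions and status OK in both. Without replicate values no test across samples could be run. The calling step was tested on simulated data with planted changes larger than any response of a member to c-di-GMP. Their noise was drawn from the intervals that the call itself uses, so calls near 2-fold were not checked. Intervals of the 40 members with at least 10 FPKM in all conditions had a median half-width of 25.5% to 26.1% of the FPKM. Sequencing depth could not be recovered, since the ratios of 2915 low genes to untreated wild-type formed no steps (at most 4.01% of genes in a bin). The members, gene lists and rules for naming genes were chosen with earlier results of these data known. Named in full were the immunoproteasome genes, standard catalytic subunits, other activators and called members, and otherwise the extremes of the wild-type response per group. Promoters came from RefSeq (GRCm38.p6). Other pseudocounts, expression minimums, fold thresholds, median centring and ways to use the intervals were tried. A gene of the related list is not reported here by name.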

Additional observations from a re-analysis of the deposited data

How the results depend on the processing

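No paired analysis was possible because the 2 samples of each condition were combined into 1 value, which carries no replicate number, and for the same reason no sample could be left out in turn. Of 90 alternatives to the counts of called members, 76 left the count, 6 changed it by at most 1.5 times and 8 by more, and 0 turned a called direction. The 8 were changes of the fold threshold. At more than 1.5-fold, 5 members were called with c-di-GMP in wild-type and 2 in Irf3/7-/- BMDCs, against 1 and 0. At more than 4-fold, the count was 0 for c-di-GMP in wild-type and in Irf1-/- BMDCs, 0 for treated Irf1-/-, untreated Tmem173-/- and untreated Irf1-/- against wild-type BMDCs, and 3 for treated Tmem173-/- against treated wild-type BMDCs (Psmb9, Psmb10 and Psme2). Of the 6, the threshold of 1.5-fold gave 10 against 7 in treated Tmem173-/- BMDCs, 6 against 5 for the Irf1-/- response, 3 against 2 in untreated Tmem173-/- and 4 against 3 in untreated Irf1-/- BMDCs, and a pseudocount of 1 or a minimum of 5 FPKM gave 6 against 7 in treated Tmem173-/- BMDCs, with 0 members called higher, so the call of Psma8 was lost. All 40 alternatives to the median differences stayed within the typical SE of a gene. Precision was limited by the width of the intervals: apart from the tissue-restricted genes, no member with a log2 difference under 0.77 in size had intervals apart, and differences up to 0.84 (Psme2 in Irf3/7-/- BMDCs) left them overlapping.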

Other observations

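Genes of peptide loading onto MHC class I, the step after the proteasome, were read in the same comparisons. Of 10 such genes, 5 rose in treated wild-type BMDCs, where 10.5% of all genes were called higher. Tapbp, the bridge between the peptide transporter and MHC class I, rose from 172 to 612 FPKM (log2 1.83, SE 0.26), B2m, the MHC class I light chain, rose from 3455 to 8294 FPKM (log2 1.26, SE 0.33), and Tapbpl, Tap2 and Nlrc5 also rose. The same number rose in Irf1-/- BMDCs (9.67% of all genes), where Nlrc5, the transactivator of MHC class I genes, rose from 9.33 to 54.6 FPKM (log2 2.54, SE 0.26), 4 rose in Irf3/7-/- BMDCs (10.2% of all genes), and 0 were called in Tmem173-/- BMDCs. Their median log2 difference was 0.94 in wild-type BMDCs, beside 0.84 for the immunoproteasome genes. In treated Irf1-/- against treated wild-type BMDCs, Tap2, Tapbpl and Erap1 were called lower. These were 3 of the 10, where 4.91% of all genes were, and all 10 lay below 0. In treated Tmem173-/- BMDCs 6 were lower (13.5% of all genes). In treated Irf3/7-/- BMDCs 0 were called, where 4.61% of all genes were higher and 2.69% lower.

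Without treatment, 5 of the 10 were lower in Tmem173-/- and 6 in Irf1-/- BMDCs than in wild-type BMDCs, beside 5.95% and 3.52% of all genes, and 0 were called in Irf3/7-/- BMDCs. Tap1 encodes a peptide transporter subunit, and in GENCODE its gene overlaps the start of Psmb9 on the other strand. The locus given for Psmb9 with the FPKM values overlaps no other gene. Tap1 was at 149 FPKM in wild-type, 141 in Irf3/7-/-, 57.7 in Irf1-/- and 34.6 FPKM in Tmem173-/- BMDCs, the same order as Psmb9. With c-di-GMP it was at 269, 226, 189.6 and 33.5 FPKM in that order. The genes share their samples with the proteasome genes, and the T cell marker and Ifng values given for the cultures apply here too.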
